A study of Mus musculus with 12 samples.

Results

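The genes described here are 10 members of the fibroblast growth factor (FGF) pathway of mouse embryonic stem cells: the ligand Fgf4, the receptors Fgfr1 and Fgfr2, the inhibitors Spry2, Spry4, Spred1, Spred2 and Dusp6, and the transcription factors Etv4 and Etv5. They were taken by name from the 55416 genes listed in each count table, and all 10 passed the filter on low counts that left 17702 genes for testing. All cells came from 1 line, Rpl31-FTA E14Tg2a.4, grown with serum and leukemia inhibitory factor. In every library the large-subunit ribosomal protein Rpl31 carried a FLAG-TEV-AviTag, which accepts biotin. Ribosomes near the endoplasmic reticulum (ER) received biotin through ALIBi, a labelling system targeted there, and were purified together with their bound RNA. The 12 libraries form 4 groups of 3 biological replicates, ER-bound or whole-cell RNA after scramble siRNA or Lsg1 siRNA, where Lsg1 is a GTPase needed late in the making of the large ribosomal subunit. Each whole-cell sample was an aliquot of the lysate of its ER-bound partner. Lysis with cycloheximide, which halts ribosomes, and poly-A selection were common to all groups. RNA of all ribosomes was not analysed here, so location at the ER and overall ribosome loading cannot be told apart.

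As background, FGF ligands are secreted proteins that bind receptor tyrosine kinases together with heparan sulphate chains on the cell surface. The receptors act through adaptors and RAS to the kinases RAF, MEK and ERK, and in embryonic stem cells Fgf4 is the ligand the cells make themselves, whose signal moves them towards differentiation. Active ERK switches on its own brakes: Sprouty proteins (Spry2, Spry4) and Spred proteins (Spred1, Spred2) act on RAS and RAF activation, the phosphatase Dusp6 removes phosphate from ERK, and Etv4 and Etv5 are transcription factors that serve as targets of the pathway. Ligands and receptors enter the ER during synthesis through a hydrophobic signal sequence, whereas the inhibitors and transcription factors are made as cytosolic or nuclear proteins.

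Reads in genes ran from 38092178 to 56522114 per library, and a member had between 294 and 20930 reads in a library. Levels are in CPM (a gene's counts scaled to a common library size), with the SD over 3 replicates. In the check of the siRNA, Lsg1 stood at 143 ± 6.38 CPM in whole-cell RNA of scramble cells and 98.0 ± 15.1 CPM after Lsg1 siRNA, and at 148 ± 4.46 against 43.5 ± 8.62 CPM in ER-bound RNA. The log2 fold by edgeR was -1.77 in ER-bound RNA (SE 0.11, Benjamini-Hochberg adjusted p = 6.3e-08) and -0.55 in whole-cell RNA (SE 0.10), where it did not pass (edgeR adjusted p = 0.245) but did in 5 of 23 alternative settings. General stem cell markers, 8 of 8 with a mean of at least 1 CPM, summed to 6498 to 6590 CPM in the whole-cell libraries and 8467 to 9029 CPM in the ER-bound ones. Of 9 fibroblast or feeder markers, 4 reached a mean of 1 CPM in a group (Fn1, Thy1, Col1a1 and Twist1), and Lum had no read in any library. Their sum was 338 to 373 CPM in the whole-cell and 442 to 504 CPM in the ER-bound libraries, most of it from Fn1, and their part in the results was not tested. The gene ENSMUSG00000119584, without a name in the annotation used, took 15604 CPM in whole-cell Lsg1 replicate 3 and 18469 CPM in ER-bound scramble replicate 3, against 1115 to 4143 CPM in the other 10 libraries.

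The beginnings of 4 coding sequences are shown to set the ligand and a receptor, which enter the ER, beside 2 inhibitors, which do not. They are the first 93 bases, from the start codon, of each gene's principal transcript in GENCODE on GRCm38, written 5′ to 3′. Capitals mark codons with thymine as second base, which encode phenylalanine, leucine, isoleucine, methionine or valine, the start codon itself left in lower case.
Fgf4: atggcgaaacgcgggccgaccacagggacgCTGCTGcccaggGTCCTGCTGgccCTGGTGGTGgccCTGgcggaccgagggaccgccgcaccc
Fgfr2: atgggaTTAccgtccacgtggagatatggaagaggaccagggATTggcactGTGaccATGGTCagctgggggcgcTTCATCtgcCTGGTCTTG
Spry2: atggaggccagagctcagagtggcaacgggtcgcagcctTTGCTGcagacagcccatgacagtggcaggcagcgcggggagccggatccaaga
Spred1: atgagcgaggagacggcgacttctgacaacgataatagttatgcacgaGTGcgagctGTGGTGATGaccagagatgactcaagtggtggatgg
The stretches of Fgf4 (chr7:144861505-144861597, forward strand), Fgfr2 (chr7:130261822-130261914, reverse strand) and Spry2 (chr14:105893658-105893750, reverse strand) each lie within 1 coding exon, while that of Spred1 on chromosome 2 crosses an intron. Within 30 codons after the start, the densest run of 10 consecutive codons held 7 such codons in Fgf4, 6 in Fgfr1, 5 in Fgfr2, 4 in Spred1 and 2 in Spry2, where the median over the 14626 tested genes with a coding start was 4. Of the other members, Spred2 held 6, as many as Fgfr1, Spry4 and Etv5 held 5, Dusp6 held 4 and Etv4 held 3. The counts thus do not part the ligand and receptors from the other members. In Fgfr2 the capitals crowd at the end of the stretch, next to the end of the window. A run that goes on past that end is not counted in full, so its count of 5 may be cut short.

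In scramble cells, the ligand and receptor mRNAs made up a larger share of the RNA on ER-labelled ribosomes than of whole-cell RNA, while the inhibitors and transcription factors went both ways. Of the 10 members, 5 were higher on ER-labelled ribosomes (Fgf4, Fgfr1, Fgfr2, Spry2 and Etv4) and 4 were lower (Spry4, Spred1, Spred2 and Etv5), where 29.8% of all genes tested were called higher and 29.1% lower. Dusp6 did not pass in this fit, which did not pair the fractions by lysate. The median log2 fold was 0.13 over the members and 0.03 over all genes tested.

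Fgf4 stood at 232, 224 and 221 CPM in the whole-cell libraries 1 to 3 and at 339.5, 333 and 327 CPM in their ER-bound partners. All 3 ER-bound libraries lay far above all whole-cell libraries, and the log2 fold was 0.56 (adjusted p = 6.1e-11 by edgeR, SE 0.03). Fgfr1, the main FGF receptor of these cells, stood at 116, 115 and 120.1 CPM in whole-cell RNA and at 194, 186 and 189 CPM in ER-bound RNA. Its groups were likewise apart, and its log2 fold of 0.70 (adjusted p = 3.5e-12 by edgeR, SE 0.03) was the highest of the 10 members. Fgfr2, a receptor with far fewer reads, had 7.86, 7.18 and 8.64 CPM in whole-cell RNA and 11.3, 11.2 and 12.2 CPM in ER-bound RNA. The groups did not overlap, with a log2 fold of 0.55 (adjusted p = 9.3e-06 by edgeR, SE 0.08). Reads of Fgfr1 and Fgfr2 are slightly uncertain, since 1.66% of the exon length of Fgfr1 lies opposite the antisense gene Gm16159 and 3.04% of that of Fgfr2 overlaps Ctbp2 on the same strand in the GRCm38 annotation.

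**Figure D1:**
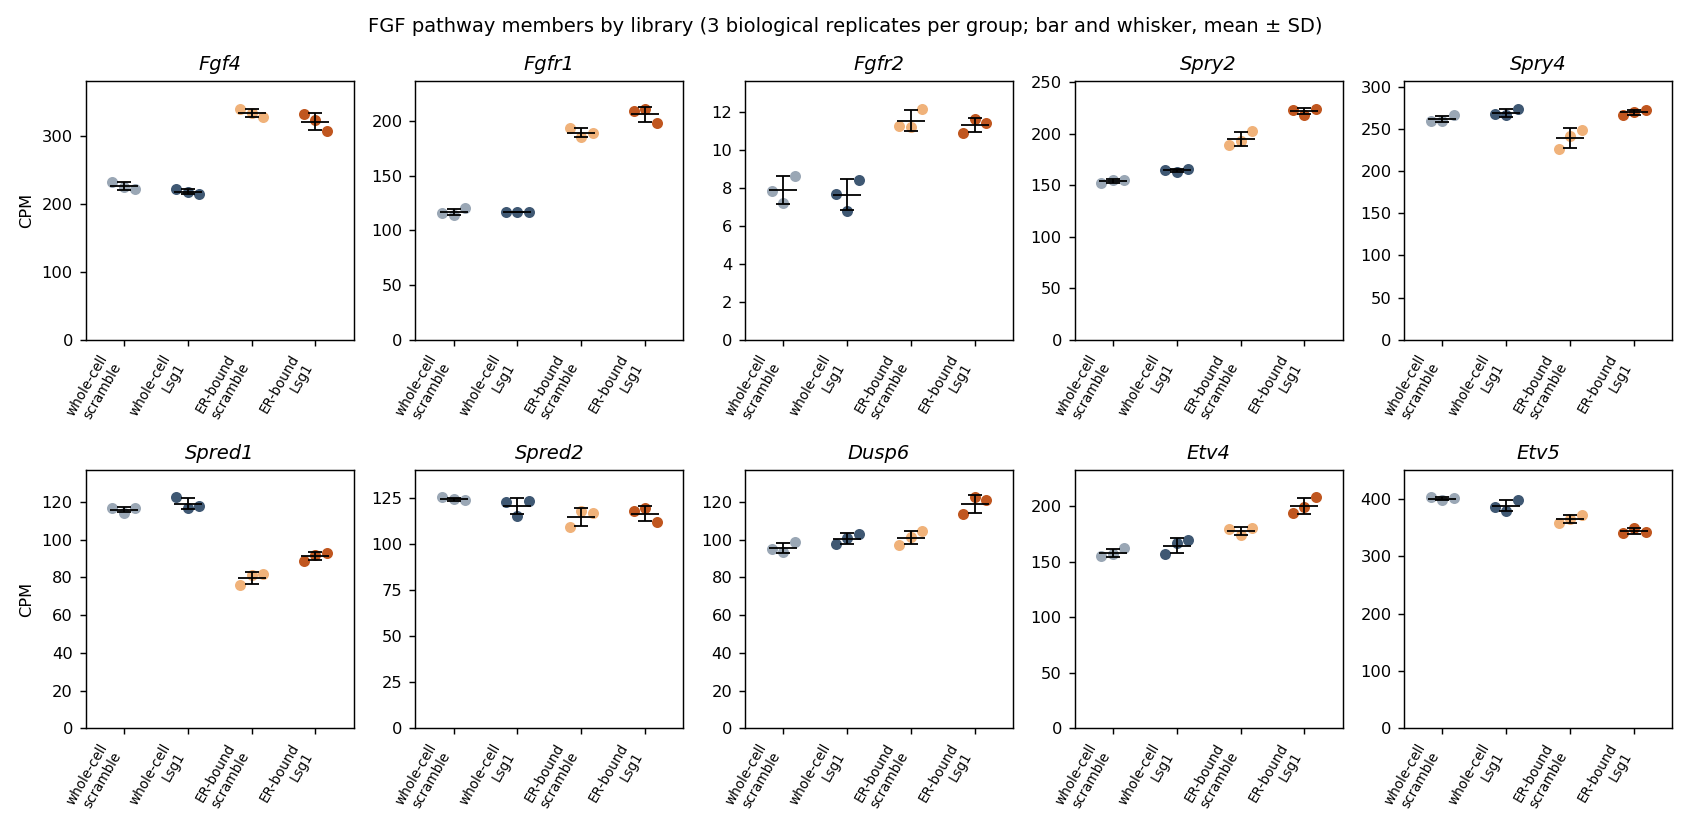
Level of each member in CPM (vertical axis, from 0) in the 12 libraries, by group (horizontal axis), with 1 point per biological replicate and the mean ± SD in black. The ER-bound points of Fgf4, Fgfr1, Fgfr2, Spry2 and Etv4 lie above all whole-cell points, and those of Spred1 and Etv5 lie below them. The ER-bound Lsg1 points of Dusp6 (114 to 122 CPM) lie above every other library of that gene.

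Among the 5 inhibitors, Spry2 was higher and Spry4, Spred1 and Spred2 were lower on ER-labelled ribosomes. Spry2 had 152, 155 and 155 CPM in whole-cell RNA and 189, 193 and 202 CPM in ER-bound RNA, with no overlap and a log2 fold of 0.34 (adjusted p = 1.6e-08 by edgeR, SE 0.03). Its coding start, shown above, holds 2 adjacent codons of the marked kind, and 95.4% of tested genes hold at least as many in a run of 10. Spry4 went the other way, from 259.6, 260.2 and 266 CPM in whole-cell RNA to 226, 241 and 249.6 CPM, and its ER-bound libraries all lay below the whole-cell ones. Its log2 fold was -0.13 (adjusted p = 0.0020 by edgeR, SE 0.03). Spred1 showed the lowest fold of all members, with 117, 114 and 117 CPM in whole-cell RNA and 76.2, 81.4 and 82.0 CPM on ER-labelled ribosomes. The groups were far apart, and the log2 fold was -0.54 (adjusted p = 2.9e-10 by edgeR, SE 0.04). Spred2, its close relative, had 125, 124 and 124 CPM in whole-cell RNA and 109, 118 and 117 CPM in ER-bound RNA, a log2 fold of -0.12 (adjusted p = 0.013 by edgeR, SE 0.04). Its groups did not overlap, but without ER-bound scramble replicate 1 the call was lost (-0.09, adjusted p = 0.053). Dusp6 had 94.96, 93.3 and 98.7 CPM in whole-cell RNA and 97.5, 101 and 105 CPM in ER-bound RNA. Its groups overlapped, and its log2 fold of 0.08 (SE 0.04) did not pass (edgeR adjusted p = 0.084), although it passed in 5 of 24 alternatives. Among these were the fit with the shared lysate as a replicate block (0.08, adjusted p = 0.028), library totals in place of TMM scaling (0.16, adjusted p = 8.5e-04) and the fit without ER-bound scramble replicate 1 (0.10, adjusted p = 0.041).

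The 2 transcription factors, close relatives, differed in opposite directions. Etv4 had 155, 157 and 162 CPM in whole-cell RNA and 179.6, 174 and 180.1 CPM in ER-bound RNA, a log2 fold of 0.17 (adjusted p = 5.1e-04 by edgeR, SE 0.04). Etv5, the member with the most whole-cell reads, had 402, 398 and 401 CPM in whole-cell RNA and 358, 365 and 372 CPM in ER-bound RNA, a log2 fold of -0.13 (adjusted p = 3.1e-04 by edgeR, SE 0.03). Neither gene's groups overlapped. The small differences of Spry4, Spred2 and Etv5 depend on the scaling: with library totals in place of TMM, which moved the median of all genes from 0.03 to 0.11, they stood at -0.06, -0.04 and -0.06 and none was called (adjusted p = 0.12, 0.38 and 0.066). The members' longest transcripts run from 41.2% GC in Spred1 to 58.7% in Etv4. With an offset for trends in GC content and length Etv4 turned to -0.09 (adjusted p = 0.030), Spred1 stood at -0.20, Spry2 at 0.21 and Etv5 at -0.21. With the same offset Dusp6 was at -0.04, and Fgf4, Fgfr1 and Fgfr2 were at 0.42, 0.71 and 0.56.

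**Figure D2:**
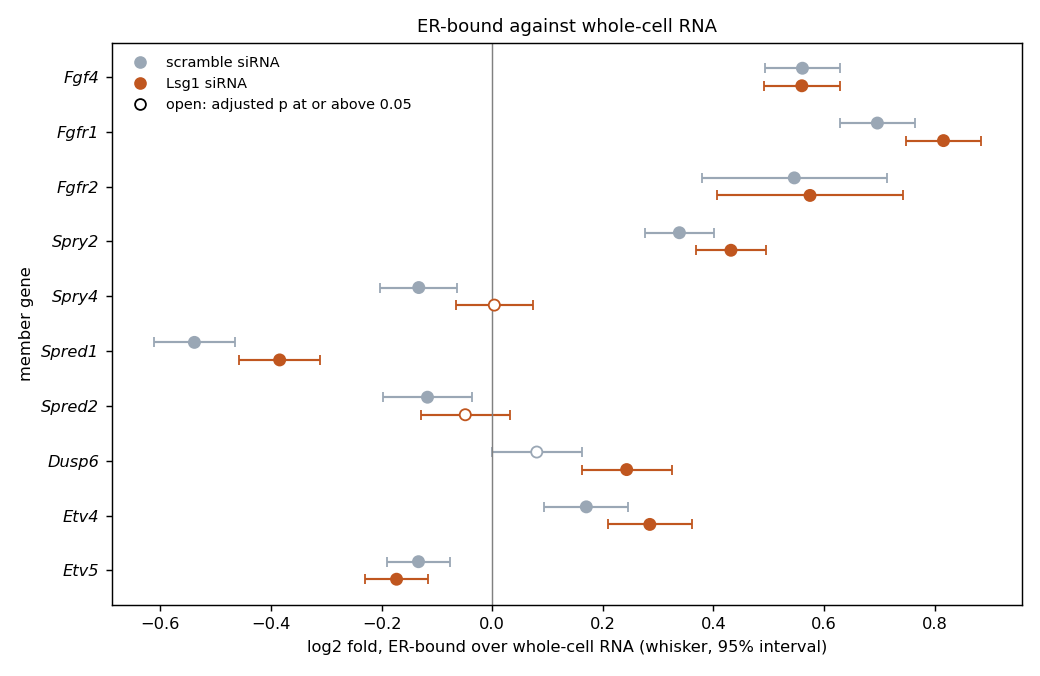
Log2 fold of ER-bound over whole-cell RNA (horizontal axis) for each member (vertical axis) in scramble cells (grey) and Lsg1 siRNA cells (orange), with 95% intervals, filled where the adjusted p is below 0.05. Fgf4, Fgfr1 and Fgfr2 lie at 0.55 to 0.82 with both siRNAs and Spred1 lies below 0 with both, while Dusp6 is open with scramble and filled with Lsg1 siRNA, and Spry4 and Spred2 the reverse.

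In cells with Lsg1 siRNA the ligand and receptors were again higher on ER-labelled ribosomes. With this siRNA 6 members were higher (Fgf4 0.56, Fgfr1 0.82, Fgfr2 0.57, Spry2 0.43, Dusp6 0.24 and Etv4 0.28 on the log2 scale) and 2 were lower (Spred1 -0.38 and Etv5 -0.17), where 30.6% of all genes were called higher and 29.8% lower. Spry4 (0.00) and Spred2 (-0.05) did not pass, and the libraries of both fractions overlapped for these 2 genes, but with library totals Spry4 was called higher (0.09, adjusted p = 0.011). The highest edgeR adjusted p among the 8 that passed was 2.5e-05, for Dusp6. Lysate by lysate, the ER-bound over whole-cell log2 ratio of Dusp6 was 0.22, 0.27 and 0.23 with Lsg1 siRNA and 0.04, 0.12 and 0.09 with scramble siRNA, so the ratios of the 2 siRNAs did not overlap. The ratio of Spred1 was -0.46, -0.35 and -0.34 with Lsg1 siRNA and -0.62, -0.49 and -0.51 with scramble siRNA, also without overlap. For Fgf4 the ratios were 0.58, 0.57 and 0.52 against 0.55, 0.57 and 0.56, which overlapped. With the offset for GC content and length, the calls of Etv4 (0.02, adjusted p = 0.67) and Spred1 (-0.06, adjusted p = 0.088) were lost, and Dusp6 stood at 0.11 (adjusted p = 0.016). With library totals Etv5 stood at -0.08 (adjusted p = 0.0072).

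The other genes of the pathway were sorted by role. As background to their counts, 29.8% of all genes tested were called higher and 29.1% lower in scramble cells. Among genes for heparan sulphate chains and their core proteins, the co-receptors that hold FGF at the cell surface, 20 of 22 tested were higher on ER-labelled ribosomes of scramble cells and 0 lower, with a median log2 fold of 0.57. The syndecan Sdc4 rose from 33.3 ± 2.86 CPM in whole-cell RNA to 98.7 ± 3.59 CPM (log2 fold 1.57), the sulphatase Sulf2 from 169.8 ± 0.41 to 316 ± 7.25 CPM (0.90), and the glypican Gpc1 had a log2 fold of 0.93. The syndecan Sdc1 had 1.00, the chain-building enzymes Ext1 and Ext2 had 0.32 and 0.60, and the sulphotransferases Hs2st1 and Hs6st1 had 0.53 and 0.46. Of 7 other receptors and co-receptors tested, 3 were higher and 0 lower, led by Fgfr4 at 1.18 and the decoy-like receptor Fgfrl1 at 0.81, with Fgfr3 at 0.36. Of 14 other ligands tested, 4 were higher (Fgf17 0.75, Fgf15 0.73, Fgf22 1.30 and Fgf3 0.31) and 1 was lower, Fgf11 at -0.26, one of the FGF homologous factors, which are not secreted. Fgf3 and Fgf11 were picked out after their values were seen. With any 1 library left out, 3 ligands were called higher and not 4, and Fgf22 rests on 2 to 15 reads per scramble library, with log2 folds from 0.91 to 1.78 and 1 lost call. No ligand was called lower without whole-cell scramble replicate 1 or 2 or ER-bound scramble replicate 1.

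The arm from adaptors to ERK consists of proteins of the cytosol and inner membrane face. Of its 24 genes, 5 were higher on ER-labelled ribosomes and 17 lower, with a median of -0.25. Plcg1, a phospholipase bound by the receptors, fell from 109.9 ± 0.99 to 55.4 ± 1.53 CPM (log2 fold -0.99). The kinase Braf had -0.71, the phosphatase Ptpn11 -0.45, the adaptor Gab1 -0.35, and the ERK gene Mapk3 -0.29. Araf was higher at 0.42. Grb2 (0.10), Hras (0.18) and Map2k2 (0.25) were higher, and all 3 changed sign with the GC and length offset. The same offset moved Braf to -0.20, Ptpn11 to -0.18, Mapk3 to -0.56 and the exchange factor Sos1 from -0.51 to -0.00, where its call was lost. It also moved Cbl, Rasal2, Nf1, Dusp1, Cic and Phlda1, named next, to -0.37, -0.49, -0.63, 0.23, -0.23 and 0.49. Ext1 moved from 0.32 to 0.68 and Fgf17 from 0.75 to 0.47, and Fgfr3 lost its call (0.27, adjusted p = 0.066). The other feedback inhibitors went both ways, as did all genes tested, of which 29.8% were called higher and 29.1% lower in scramble cells. Of the 23 inhibitors tested, 5 were higher (2 with DESeq2) and 8 lower (median 0.01). They included Dusp1 at 0.47, a nuclear phosphatase of MAP kinases, Cbl at -0.89, Rasal2 at -0.96 and the RAS inhibitor Nf1 at -1.18. Il17rd was also called higher, but its call was lost in 10 of 24 alternatives, over which its log2 fold ran from 0.07 to 0.44. Of 18 other ETS factors and ERK target genes, 7 were higher and 7 lower (median -0.02), among them Phlda1 at 0.76, Egr1 at 0.20, Elk4 at -1.19 and Cic, a repressor of Etv genes, at -0.46. With Lsg1 siRNA the counts were 21 of 22 higher for heparan sulphate genes (median 0.61), 5 higher and 18 lower for adaptors and kinases (median -0.24), 8 and 8 for other inhibitors, 6 and 5 for ETS factors and targets, 5 and 1 for ligands, and 2 and 1 for receptors. Over all genes tested, 30.6% were called higher and 29.8% lower with this siRNA.

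**Figure D3:**
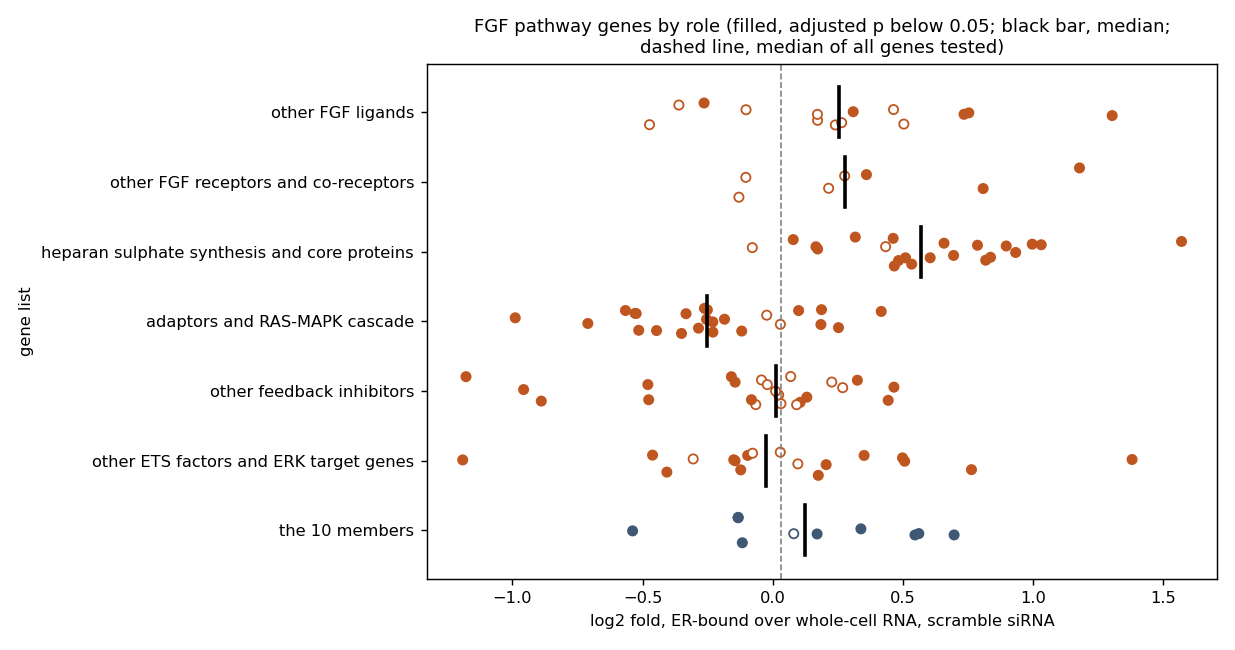
Log2 fold of ER-bound over whole-cell RNA in scramble cells (horizontal axis) for each tested gene of 6 pathway lists and the 10 members (vertical axis), filled where the adjusted p is below 0.05, with the list median in black. Heparan sulphate genes lie almost all to the right (median 0.57) and adaptors and kinases mostly to the left (median -0.25) of the dashed median of all genes (0.03).

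The coding starts were then set beside these folds. Over the tested genes with a coding start, the median log2 fold of ER-bound over whole-cell RNA in scramble cells was -0.04 for the 4607 genes with at most 3 marked codons in their densest run of 10, -0.03 with 4 and -0.02 with 5. It was 0.23 for the 1541 genes with 6 and 0.54 for the 1645 genes with 7 or more, of which 67.4% were called higher and 5.17% lower. Fgf4, with 7, lay at 0.56, close to the median of its range. Fgfr1, with 6, lay at 0.70 and so above the median of its range, and Spred2, also with 6, lay at -0.12 and below it. Spry2, with 2, lay at 0.34 and Spred1, with 4, at -0.54, so both differed from the medians of their ranges, in opposite directions. Fgfr2, with 5, lay at 0.55 and so above the median of its range, while Spry4 and Etv5, also with 5, both lay at -0.13. The marked codons of Fgfr2 reach the end of the window, so its count and its range may be too low. The share of these genes with at least as many marked codons was 11.2% for Fgf4, 21.8% for Fgfr1, 42.4% for Fgfr2 and 68.5% for Spred1. These are descriptions of letters in a fixed window, and no test was made of them.

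**Figure D4:**
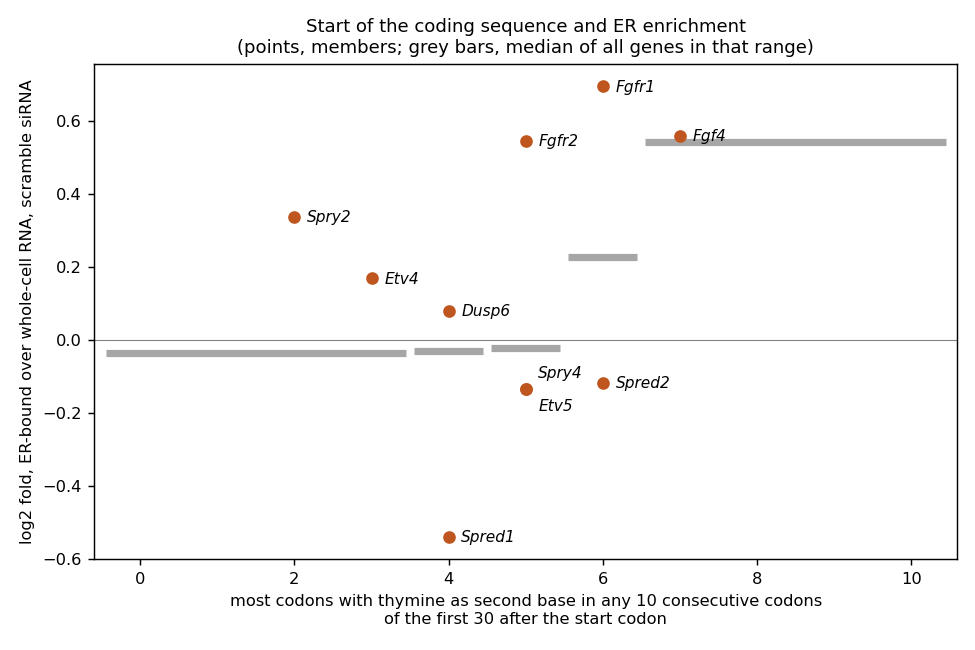
Log2 fold of ER-bound over whole-cell RNA in scramble cells (vertical axis) against the most marked codons in any 10 consecutive codons near the start (horizontal axis). Points are the 10 members, and grey bars are medians of the tested genes in each range, which rise from -0.04 to 0.54. Fgf4 lies on the last bar, Spry2 above the first, Spred1 below the second and Fgfr2 above the third. The count of Fgfr2 may be cut short by the end of the window of codons scanned.

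After Lsg1 siRNA, 4 of the 5 inhibitors were higher on ER-labelled ribosomes than after scramble siRNA. In ER-bound RNA, 6 of the 10 members were higher with Lsg1 than with scramble siRNA (Fgfr1, Spry2, Spry4, Spred1, Dusp6 and Etv4) and 0 were lower, where 2.63% of all genes tested were called higher and 1.38% lower. The groups of all 6 were apart, with every Lsg1 library above every scramble library, as was so for 12.5% of all genes tested. The changes were small, from 8.93% for Fgfr1 to 17.7% for Dusp6, and the members' median log2 fold was 0.15 against 0.01 over all genes. The members were chosen with earlier results of these data known, and the shares over all genes include genes with few reads. Those shares are thus no independent background, and the difference from them was not tested.

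Dusp6, the ERK phosphatase, had 97.5, 101 and 105 CPM on ER-labelled ribosomes of scramble cells and 114, 122 and 121 CPM with Lsg1 siRNA. Every Lsg1 library lay above every scramble library, and the log2 fold of 0.24 (adjusted p = 0.0020 by edgeR, SE 0.04) was the highest among the members. Spry2 went from 189, 193 and 202 CPM to 223, 218 and 224 CPM, a log2 fold of 0.19 (adjusted p = 0.0017 by edgeR, SE 0.03), with groups apart. Spry4 went from 226, 241 and 249.6 CPM to 266.5, 271 and 273 CPM, a log2 fold of 0.18 (adjusted p = 0.0050 by edgeR, SE 0.03). Its scramble libraries were spread more widely than its Lsg1 libraries, with replicate 1 the lowest, and without that library the log2 fold was 0.13 (adjusted p = 0.021). Spred1 went from 76.2, 81.4 and 82.0 CPM to 88.8, 91.8 and 92.8 CPM, a log2 fold of 0.19 (adjusted p = 0.0046 by edgeR, SE 0.04). These 4 inhibitors kept their call in 23 of 23 alternative settings. Their calls share the same libraries: scramble replicate 1 was the lowest of its group for each of them, and for 6 of the 10 members. Among the ER-bound Lsg1 libraries, replicate 1 was likewise the lowest for 6 of the 10 members.

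Etv4, the transcription factor, went from 179.6, 174 and 180.1 CPM to 194, 199.6 and 208 CPM, a log2 fold of 0.17 (adjusted p = 0.010 by edgeR, SE 0.04). Its groups did not overlap, but the call was lost in 3 of 23 alternatives, each of which left out 1 ER-bound library: without scramble replicate 2 (0.14, adjusted p = 0.12), Lsg1 replicate 2 (0.17, adjusted p = 0.073) or Lsg1 replicate 3 (0.13, adjusted p = 0.10). Fgfr1 went from 194, 186 and 189 CPM to 209, 211 and 198 CPM, a log2 fold of 0.12 (adjusted p = 0.035 by edgeR, SE 0.03). This call was lost in 17 of 23 alternatives, with adjusted p-values from 0.020 to 0.27 over all of them, so the receptor is near the threshold.

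The other 4 members did not pass. Etv5 had 358, 365 and 372 CPM with scramble and 339.8, 349 and 343 CPM with Lsg1 siRNA, and its Lsg1 libraries all lay below its scramble libraries. Its log2 fold was -0.09 (adjusted p = 0.084 by edgeR, SE 0.03). The values of Fgf4 were -0.05 (95% interval -0.12 to 0.01), of Fgfr2 -0.03 (-0.19 to 0.13) and of Spred2 0.02 (-0.06 to 0.10), all with overlapping groups. Spred1 and Etv4 were thus called and their relatives Spred2 and Etv5 not, while both Sprouty genes were called, and the differences between relatives were not tested. These values and those of ER-bound against whole-cell RNA share the ER-bound scramble libraries, so a low value there enters both. Markers of the naive state were among the genes called in the same comparison: 3 of 10 (Nanog -0.18, Klf2 -0.13 and Tfcp2l1 -0.20) were lower and 0 higher, and the 10 genes, Fgf4 among them, summed to 4114 to 4265 CPM with scramble and 3860 to 4043 CPM with Lsg1 siRNA in ER-bound RNA. Of 8 primed markers 1 was lower (Zic2 -0.24) and 0 higher, and their sums were 354 to 378 CPM against 341 to 365 CPM. The part of cell state in the members' values was not tested, and in bulk RNA fewer cells of a state and less RNA per cell cannot be told apart.

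**Figure D5:**
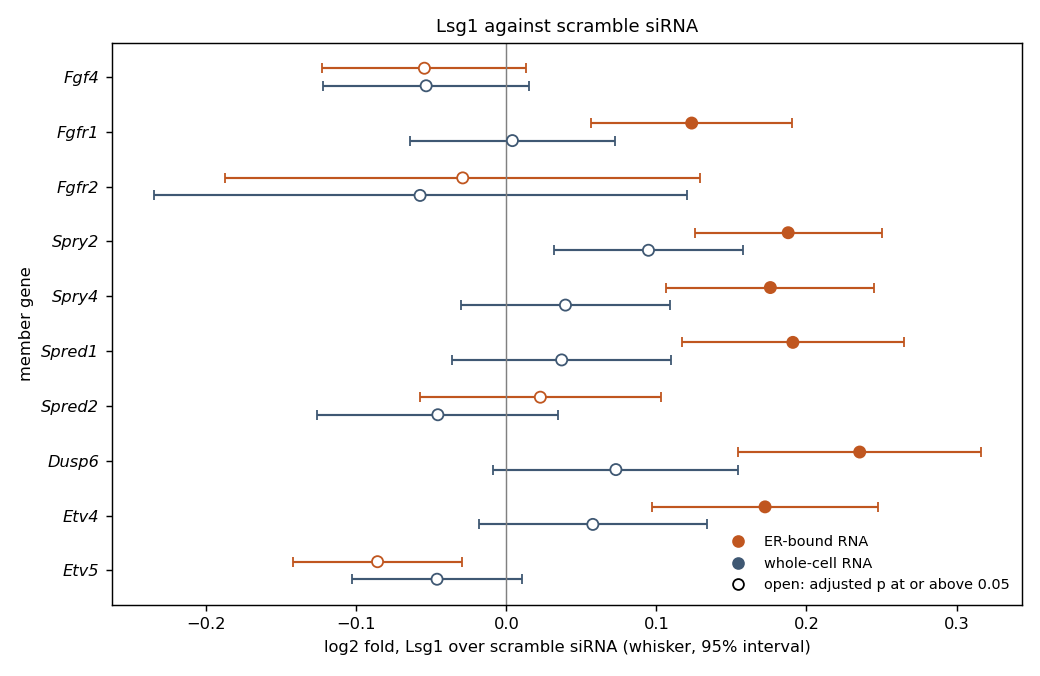
Log2 fold of Lsg1 over scramble siRNA (horizontal axis) for each member (vertical axis) in ER-bound RNA (orange) and whole-cell RNA (blue), with 95% intervals, filled where the adjusted p is below 0.05. The 6 filled points are all ER-bound and lie between 0.12 and 0.24, and all 10 whole-cell points are open.

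Of the 108 other pathway genes tested, 9 (8.33%) were called between the siRNAs on ER-labelled ribosomes, against 4.01% of all genes. The share over all genes depends on how many genes with few reads are tested. It was 710 of 17702 in the main fit and 834 of 12578 with the filter of 2 CPM. The share of pathway genes with that filter is not given here. Of the 23 other feedback inhibitors tested, 0 were called in either direction by edgeR (median -0.00), with 3 at an unadjusted p below 0.05, and 0 by DESeq2 and 1 by limma-voom. These 23 include the Sprouty and Spred relatives Spry1 and Spred3 and the phosphatases Dusp1, Dusp4 and Dusp9. The differences between these genes and the 4 called inhibitors were not tested. Of 22 heparan sulphate genes 4 were higher, Gpc4 at 0.26, Gpc1 at 0.15, Sdc1 at 0.15 and Hs2st1 at 0.14, and 0 were lower. The glypican Gpc4 had 38.8, 39.1 and 40.2 CPM with scramble and 49.0, 45.5 and 46.5 CPM with Lsg1 siRNA, with groups apart. Of the other receptors Fgfr4 was higher, from 16.4, 16.9 and 17.9 CPM to 21.9, 21.1 and 21.4 CPM (log2 fold 0.33, edgeR adjusted p = 0.0049). Of the other ligands Fgf17 was lower at -0.26, and of 24 adaptors and kinases Map2k1, which encodes MEK1, was lower at -0.15, from 136, 132 and 132 CPM to 121, 122 and 118 CPM. Of 18 ETS factors and ERK targets, Phlda1 at 0.34 and Etv1, the third member of the Etv4 and Etv5 family, at 0.20 were higher and 0 were lower. The calls of Gpc1, Hs2st1, Sdc1 and Etv1 were lost in 12, 16, 17 and 9 of 23 alternatives.

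In whole-cell RNA 0 of the 10 members were called between the siRNAs by edgeR, DESeq2 or limma-voom, where 0% of all 17702 genes were called by edgeR, 5 genes by DESeq2 and 0 by limma-voom. At an unadjusted p below 0.05, 4.13% of all genes (731) and 1 of the 10 members passed. That member was Spry2, with 152, 155 and 155 CPM with scramble and 165, 163 and 166 CPM with Lsg1 siRNA. Its groups did not overlap, and its log2 fold was 0.09 (95% interval 0.03 to 0.16, unadjusted p = 0.0056, edgeR adjusted p = 1.00). Dusp6 had 94.96, 93.3 and 98.7 CPM against 97.6, 101 and 103 CPM, with overlap and a log2 fold of 0.07 (-0.01 to 0.15). Etv4 had 0.06 (-0.02 to 0.13), Spry4 0.04 (-0.03 to 0.11), Spred1 0.04 (-0.04 to 0.11) and Fgfr1 0.00 (-0.06 to 0.07). Fgf4 stood at -0.05 (-0.12 to 0.02), Etv5 at -0.05 (-0.10 to 0.01), Spred2 at -0.05 (-0.13 to 0.03) and Fgfr2 at -0.06 (-0.24 to 0.12). For the 6 members called in ER-bound RNA the whole-cell values were all smaller than the ER-bound ones. These 6 were picked by their ER-bound values, which by itself favours smaller whole-cell values. Each of those whole-cell intervals but that of Spry2 included 0.

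Whether the siRNA effect differed between the fractions was tested as the interaction, and 0 of the 10 members passed by edgeR, DESeq2 or limma-voom. By edgeR 0.0226% of all genes (4) were called, by DESeq2 16 genes and by limma-voom 5. At an unadjusted p below 0.05, 6 of the 10 members passed, where 6.89% of all genes (1219) did. The 6 were those called in ER-bound RNA, which enters both tests, and all had a positive interaction on the log2 scale: Dusp6 0.16 (95% interval 0.05 to 0.28), Spred1 0.15 (0.05 to 0.26), Spry4 0.14 (0.04 to 0.23), Fgfr1 0.12 (0.02 to 0.22), Etv4 0.11 (0.01 to 0.22) and Spry2 0.09 (0.00 to 0.18). For these 6 the 3 lysate ratios with Lsg1 siRNA all lay above the 3 with scramble siRNA, as they did for 8.06% of all genes tested. Their edgeR adjusted p-values ran from 0.52 for Spred1 to 0.70 for Spry2, so the larger values in ER-bound RNA are not shown to differ from those in whole-cell RNA. Fgf4 (-0.00, 95% interval -0.10 to 0.10) and Fgfr2 (0.03, -0.21 to 0.27) centred near 0. As the members were chosen with earlier results of these data known, the shares over all genes are no independent background here either.

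Levels between genes were compared per kilobase of merged exons. In whole-cell RNA of scramble cells the order was Etv5 at 97.6 ± 0.52 CPM per kb, Spry2 at 73.8 ± 0.82, Fgf4 at 70.7 ± 1.71, Spry4 at 55.1 ± 0.79, Etv4 at 50.9 ± 1.25, Dusp6 at 30.5 ± 0.89, Spred2 at 26.9 ± 0.18, Spred1 at 17.1 ± 0.22, Fgfr1 at 11.8 ± 0.29 and Fgfr2 at 0.76 ± 0.07 CPM per kb. The libraries of neighbours in this order did not overlap for any of the 9 pairs, and the same held in each of the other groups. Both receptors were thus the lowest members in whole-cell RNA per kb of merged exons, but this order depends on the length used. The merged exons of Fgfr1 span 9.875 kb, while its longest transcript has 5041 bases. In plain CPM of whole-cell scramble RNA, Fgfr1 at 117 stood above Dusp6 at 95.7. On ER-labelled ribosomes of scramble cells Fgf4 stood first, at 104 ± 1.97 CPM per kb, ahead of Spry2 at 93.3 ± 3.18 and Etv5 at 88.9 ± 1.67, and Fgfr1 at 19.2 ± 0.43 stood above Spred1 at 11.8 ± 0.47. With Lsg1 siRNA the ER-bound order was led by Spry2 at 106 ± 1.43 CPM per kb, with Fgf4 at 100.4 ± 4.08 and Etv5 at 83.8 ± 1.17. The SD of a member within a group was between 0.033% and 10.7% of its mean, with a median of 2.48%.

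The genes whose log2 CPM ran most like each member over the 12 libraries were picked among 10632 named genes with a mean of at least 5 CPM, by Pearson's r. The 12 points fall into 2 fractions and share lysates in pairs, so these r describe the pattern and are no test. Fgf4 ran with Asph, Ildr1 and Rcn1 (r = 0.997 for each), and Fgfr1 with Parm1, Tmem222 and Prdx4 (0.998 to 0.999). Fgfr2 ran with Dlk1, Tpgs1 and Nrxn2 (0.977 to 0.980) and Spry2 with Pon2, Abhd4 and Zdhhc7 (0.991 to 0.993). Spred1 ran with Med13l, Zbtb39 and Crybg3 (0.993 to 0.996), Etv5 with Mtss1, Enah and Zfyve28 (0.980 to 0.985), and Etv4 with Nop16, Tex19.1 and Psmg3 (0.980 to 0.986). Dusp6 ran with Prkag1, Cops8 and Rarg (0.962 to 0.971), Spry4 with Irf2bpl, Ppp2r5a and Jpt2 (0.923), and Spred2 with Smad3, Pcnx and Lifr (0.876 to 0.896). None of the 30 genes was itself a member.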

How the data were processed

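RNA was measured in 12 libraries of mouse embryonic stem cells, 3 per group, with groups and replicate numbers taken from the labels. The authors deposited raw counts of reads per gene. Per the submitters' processing notes, STAR 2.7.9a, HTSeq 0.11.2, DESeq2 and the build GRCm39 were used. Neither strand setting nor annotation release is given in the sources used here, and the library kit keeps strand, per the labels' protocols.

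TMM scaling and the filterByExpr filter were applied to these deposited counts, and 17702 genes were fitted with edgeR 4.0.16 in R 4.3.3 (quasi-likelihood F-test, 1 mean per group, all 12 libraries, 8 residual degrees of freedom), with a biological coefficient of variation of 4.42%. The p-values were adjusted by Benjamini-Hochberg over all genes, with a threshold of 0.05. Counts for no feature (2.65% to 5.26% of all counts of a library, these included), ambiguous (0.970% to 1.16%) and multiply aligned reads (6.09% to 8.23%) were left out. Names, exon lengths and coding starts came from a GENCODE annotation on GRCm38, matched by gene ID without version, and 52083 IDs (94.0%) had a name. CPM per kb divides by merged exon length. The test was checked on simulated counts, and plots were drawn with matplotlib 3.10.9.

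The members and gene lists were chosen with earlier results of these data known. Named in each comparison were all 10 members, Lsg1, up to 3 called genes of each list with the smallest p, list genes averaging 50 CPM or more in a group, and per member the 3 genes most like it, except a few items that are not reported here. Alternatives tried were DESeq2 size factors, library totals alone, no filter, a filter of 2 CPM in 3 or more libraries, DESeq2 1.42.0, limma-voom (limma 3.58.1), a fit to just the compared groups, the replicate number as a block, leaving mitochondrial and ribosomal protein genes out, an offset for GC content and length, and each library left out. Leaving out both libraries high in ENSMUSG00000119584 was added after seeing the data. Fractions are paired through their common lysate, which the main fit did not use. A further alternative, for the comparisons of fractions and the interaction, took the lysate as a block. Between siRNAs no source ties equal replicate numbers together, so the number was not treated as a pairing there.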

Additional observations from a re-analysis of the deposited data

Results flagged for a closer look

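The effect of the siRNA on its own target differed between the fractions: the interaction of fraction and siRNA for Lsg1 was -1.22 on the log2 scale (SE 0.15, edgeR adjusted p = 0.0013), with a greater fall in ER-bound than in whole-cell RNA. None of the 10 members passed the same test. No rule for single outlying values was applied to groups of 3 libraries, but each library was left out in turn, as given below.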

How the results depend on the processing

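Of 1170 recomputed log2 folds of members, 1097 kept their direction and their side of the threshold, 26 lost and 9 gained a call, and 38 changed sign. Between fractions, library totals alone left 1 member lower in scramble cells (4 with TMM), and the GC and length offset left 1 lower in Lsg1 cells (2 without it). In ER-bound RNA between siRNAs, 1 member (Etv5) was lower, against 0, with the 2 CPM filter, with the replicate block and with the GC and length offset. The replicate block also called Dusp6 higher between fractions in scramble cells (adjusted p = 0.025), and changed no other call of a member. Between siRNAs the samples share only a number: in ER-bound RNA the residuals of libraries with equal numbers correlated at 0.173, 0.00727 and 0.144 over all tested genes (0.376, 0.125 and 0.322 over genes of at least 5 CPM), and 4 of 6 libraries correlated best with their own number.

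With the GC and length offset, values between fractions turned to -0.0403 for Dusp6, -0.0870 for Etv4, -0.0896 for Grb2, -0.0347 for Hras, -0.00845 for Map2k2 and -0.0544 for Myc in scramble cells, and to -0.0709 for Grb2, -0.0563 for Hras, -0.0540 for Map2k2, -0.00997 for Myc and 0.0245 for Sos1 (-0.46 without it) in Lsg1 cells. Spry4 in Lsg1 cells, near 0, was -0.01039 with DESeq2 size factors, -0.01038 with DESeq2, -0.007107 without a filter, -0.008951 with only the groups compared, -0.0216 without mitochondrial and ribosomal protein genes, -0.009832 without both libraries high in ENSMUSG00000119584, and -0.0333 to 0.00972 with 1 library left out, and it was called higher with library totals (0.0924). Library totals turned Spred2 in Lsg1 cells to 0.0398, Fgfr1 in whole-cell RNA to -0.001052 and the interaction of Fgf4 to 0.00886. With 1 library left out, values between siRNAs ran from -0.0189 to 0.0368 for Spred2 in ER-bound RNA, from -0.0179 to 0.0296 for Fgfr1 and from -0.142 to 0.0277 for Fgfr2 in whole-cell RNA, and interactions from -0.0306 to 0.0168 for Fgf4 and from -0.0666 to 0.103 for Fgfr2.

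The count of all genes called between siRNAs in ER-bound RNA was 710, against 375 with only the groups compared, 1178 with the replicate block and 290 without ER-bound Lsg1 replicate 2. In whole-cell RNA it was 0, against 26 without a filter, 5 with the block, 5 with DESeq2 and 1 to 4 in several others. For the interaction it was 4, against 59 without a filter, 16 with DESeq2 and 13 with the block.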
